A study of Mus musculus with 8 samples.

Results

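The mitochondrial genome of the mouse carries 37 genes, and the rows whose gene name begins with mt- gave all 37 of them among the 55188 genes of each table: 13 mRNAs, 2 rRNAs and 22 tRNAs. The coordinates of all 37 in the files were those of the mouse annotation used here (mm10, GENCODE M21, chromosome MT). The study sequenced RNA from hippocampus before fear conditioning in C57BL/6 mice, either wild type (WT) or labelled as lacking Pyk2 (KO), a kinase that responds to calcium and is the product of Ptk2b. Samples numbered 1 and 2 in each genotype (WT1, WT2, KO1 and KO2) gave 2 technical replicate libraries apiece, 8 in all, and a number is taken here as 1 animal, so n = 2 per group. The labels call all the mice transgenic and give neither age, sex, the knockout allele nor whether each number is a separate mouse, so p-values reflect only the spread between these numbered samples. Read totals are not among the values used here. The FPKM of each library summed to 482663 to 492481 over the 55181 genes with a value in every library, which leave out mt-Co1 and mt-Ts1.

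Mitochondrial DNA encodes core subunits of 4 of the respiratory chain and ATP synthase complexes, the rRNAs of the mitochondrial ribosome and the tRNAs that ribosome uses; all other mitochondrial proteins come from nuclear genes. Each strand is transcribed as a long precursor. Most genes are read from the strand called heavy, while mt-Nd6 and 8 of the tRNAs come from the light strand, and tRNAs that stand between the other genes mark where the precursor is cut. Neurons depend strongly on this system, since synaptic transmission and ion pumping consume much ATP.

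The values are FPKM, fragments scaled to transcript length and library total, and a difference between groups is given as log2(FPKM + 1), KO minus WT, from limma fitted over all 16667 genes with at least 0.5 FPKM in 2 animals. Of these genes 9 (0.054%) passed a Benjamini-Hochberg adjusted p of 0.05, all with lower means in KO. Before adjustment 2591 genes (15.5%) had a p under 0.05, 685 higher (4.11%) and 1906 lower (11.4%), and after median-of-ratios scaling the split was 1282 and 1514. The added 1 makes differences of low genes look smaller. Ptk2b itself was at 202 to 232 FPKM in the WT libraries and at 264 to 279 FPKM in those labelled KO, so its level does not bear out the label, and directions below are those of the libraries as labelled. Markers of choroid plexus epithelium, 16 genes, summed to 4250.5 to 7554 FPKM in WT and 290.2 to 1262 FPKM in the libraries labelled KO, with none at 0 in every library. Markers of red blood cells (5 genes), ependyma (6) and meningeal fibroblasts (7) all had lower means in KO. Of 10 neuronal markers listed, all but Tubb3 were used, and 7 of these 9 had higher means in KO (1958 to 1970 FPKM summed in WT, 2135 to 2245 FPKM in KO). In whole hippocampus, fewer cells of a type and less RNA per cell cannot be told apart. The status column of the files marks mt-Co1 and mt-Ts1 in the first library of KO1 as HIDATA (too many fragments to estimate), so these 2 values were dropped and KO1 rests on its second library for both genes.

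The sequence of this small genome sets what an FPKM of a single gene can mean, since neighbouring genes overlap, nuclear copies exist and the tRNAs are short. Of these, overlap comes first. The reading frame of mt-Atp8 runs into that of mt-Atp6 on 1 RNA, so fragments there belong to both genes. The stretch below (MT:7887-8009, plus strand, bases from the GENCODE M21 transcripts) shows the 43 shared bases in capitals, with 40 bases on each side, and the capitals open with the ATG that starts mt-Atp6.
mt-Atp8/mt-Atp6: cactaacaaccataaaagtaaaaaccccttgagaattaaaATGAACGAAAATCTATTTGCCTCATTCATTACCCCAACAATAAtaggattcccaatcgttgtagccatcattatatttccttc
mt-Nd4l and mt-Nd4 share 7 bases in the same way, shown in capitals in MT:10127-10213.
mt-Nd4l/mt-Nd4: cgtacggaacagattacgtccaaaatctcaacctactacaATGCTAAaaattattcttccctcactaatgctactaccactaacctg
Of the 15 mRNAs and rRNAs, 10 overlap another mitochondrial gene, and their deposited 95% intervals reached 4.13% to 4.40% of the value on the upper side in every library. The 5 that overlap none (mt-Rnr1, mt-Rnr2, mt-Co2, mt-Nd3 and mt-Cytb) had intervals of 0.349% to 1.82%. The width in the overlapping genes was nearly the same whatever their level, so it cannot be read as counting error alone.

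A run of pseudogenes on chromosome 1 copies part of the mitochondrial genome, from mt-Co1 to mt-Nd4, almost without change. Over their whole length, Gm28661 (681 bases), Gm10925 (678), Gm28437 (783), Gm10222 (294) and Gm28439 (876) were identical to mt-Co2, mt-Atp6, mt-Co3, mt-Nd4l and the first part of mt-Nd4. Gm28438 differed from mt-Nd3 at 1 of 345 bases, T3C, counted from the first base of the mitochondrial gene, and Gm29216 differed from the end of mt-Co1 at 6 of 492 bases, from T1056A to A1066T. The starts of these 2 pairs, with the differing bases in capitals, show how little there is to tell a fragment of one from the other.
mt-Nd3 (MT:9459-9491): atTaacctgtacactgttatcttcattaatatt
Gm28438 (1:24613087-24613119, minus strand): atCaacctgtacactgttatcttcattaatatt
mt-Co1 (MT:6381-6413): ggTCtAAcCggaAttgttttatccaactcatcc
Gm29216 (1:24616165-24616197, minus strand): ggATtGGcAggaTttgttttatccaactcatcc

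The nuclear copies were listed at the level of the genes they copy. Gm10925 was at 5323 to 5992 FPKM over the 8 libraries, 99.7% to 99.8% of mt-Atp6 in the same library. Gm28437 stood at 99.7% to 99.8% of mt-Co3, Gm28661 at 100.2% to 100.3% of mt-Co2, Gm28438 at 99.7% to 100.3% of mt-Nd3, and Gm10222 at 98.1% to 98.8% of mt-Nd4l. The copies that cover only part of their gene were lower, Gm29216 at 76.7% to 78.4% of mt-Co1 and Gm28439 at 57.0% to 58.3% of mt-Nd4. Together the 7 copies held 6.67% to 7.01% of the FPKM summed without mt-Co1 and mt-Ts1. Whether a fragment that matches both places was counted in each or divided between them is not given in the sources used here. The levels of these 7 mitochondrial genes are therefore uncertain. mt-Atp8, mt-Ts1, mt-Td, mt-Tk, mt-Tg and mt-Tr lie between them in the same stretch of the mitochondrial genome. Apart from bases shared with neighbours, their sequences were not compared with chromosome 1, so the uncertainty can extend to them. Levels are compared below with that limit. None of the 7 copies passed (log2 fold changes of -0.05 to 0.07, smallest limma adjusted p = 0.594).

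**Figure D1:**
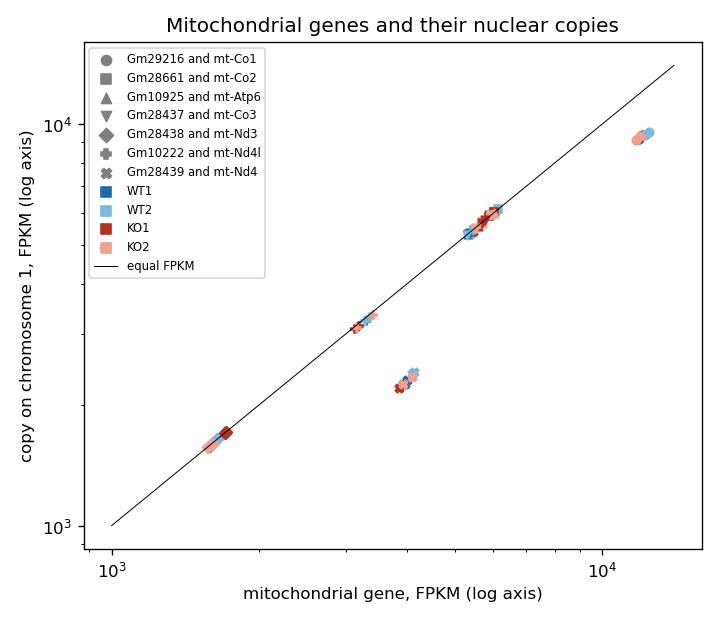
FPKM of each nuclear copy on chromosome 1 (vertical, log axis) against the mitochondrial gene it copies (horizontal, log axis), 1 point per library, with colours for animals and shapes for pairs. Points of 5 pairs lie on or close to the line of equal FPKM, and those of Gm29216 with mt-Co1 and Gm28439 with mt-Nd4 lie below it.

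The tRNAs are 59 to 75 bases long, and their values rest on few fragments. Read as counting error alone, the upper interval of mt-Te would stand for 17 to 52.8 fragments per library, so that 1 fragment was worth 37.8 to 72.6 FPKM, against 0.0212 to 0.0285 FPKM in mt-Cytb. These numbers are approximate, since the files hold no counts, and a deposited interval can hold more than counting error. The sequences of the pair of light-strand tRNAs with the highest levels, mt-Ts1 and mt-Te, of the highest heavy-strand tRNA, mt-Tm, and of mt-Td, listed at 0 throughout, are given with the anticodon in capitals.
mt-Ts1 (MT:6870-6938, minus strand): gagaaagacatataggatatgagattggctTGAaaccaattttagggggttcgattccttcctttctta
mt-Te (MT:14071-14139, minus strand): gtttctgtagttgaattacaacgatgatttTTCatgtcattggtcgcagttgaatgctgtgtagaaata
mt-Tm (MT:3845-3913, plus strand): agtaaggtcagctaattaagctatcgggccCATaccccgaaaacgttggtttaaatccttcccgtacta
mt-Td (MT:6942-7011, plus strand): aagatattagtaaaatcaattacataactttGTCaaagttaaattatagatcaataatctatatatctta

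The summed level of the mitochondrial mRNAs did not separate the groups. Without mt-Co1, which lacks a value in 1 library, the other 12 mRNAs summed to 63467 and 62069 FPKM in the libraries of WT1, 63421 and 64002 in WT2, 63654 and 62968 in KO1, and 64971 and 62173 in KO2. The ranges of the groups overlapped in part, with the first library of KO2 above every WT library, and the means were 63240 ± 667 FPKM in WT and 63442 ± 185 FPKM in KO (SD, n = 2 each), a difference of 0.319%. As a share of the FPKM summed over the 55181 genes with a value in every library, they made up 12.6% to 13.1% in WT. The share was 12.9% to 13.4% in KO, and mt-Co1 is missing from both parts of it. The difference was 3.16% after median-of-ratios scaling and 3.22% after quantile normalization, so the size of this small difference depended on the scaling. Leaving out the first KO1 library gave 0.0480%, and it was -0.424% without WT1, 1.07% without WT2, 0.526% without KO1 and 0.112% without KO2, so its size moved with the library or animal left out, and its sign turned without WT1.

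Of the 31 members that passed the minimum level (13 mRNAs, 2 rRNAs and 16 tRNAs), 0 passed the adjusted threshold in limma, against 0.054% of all genes, and 2, both tRNAs, had an unadjusted p under 0.05, against 15.5% of all genes. The 13 mRNAs had log2 fold changes of -0.09 to 0.07 with a median of -0.04. Of them 4 (mt-Atp8, mt-Atp6, mt-Co3 and mt-Nd3) had a higher mean in KO. After quantile normalization only mt-Nd1 and, at the edge of 0, mt-Co1 were negative. That method gives each value the mean of its rank over the libraries. For genes this high a sign there follows the order among genes of similar level, so it cannot decide a direction. Over all genes tested the median was -0.02, and 42.0% had a higher mean. The 95% intervals of the 13 differences all included 0. The lowest end was -0.27 for mt-Nd6 (upper end 0.08) and the highest 0.25 for mt-Atp8 (lower end -0.10). A true difference inside the interval of a gene remains possible. Exact two-sided permutation tests over the 4 animals could not go below p = 0.333. The difference between animals of 1 group was of the size of that between groups. Its median over the 13 mRNAs was 0.05 in WT and 0.05 in KO on the log2 scale, beside a median size of 0.04 between groups and 0.03 between technical replicates.

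**Figure D2:**
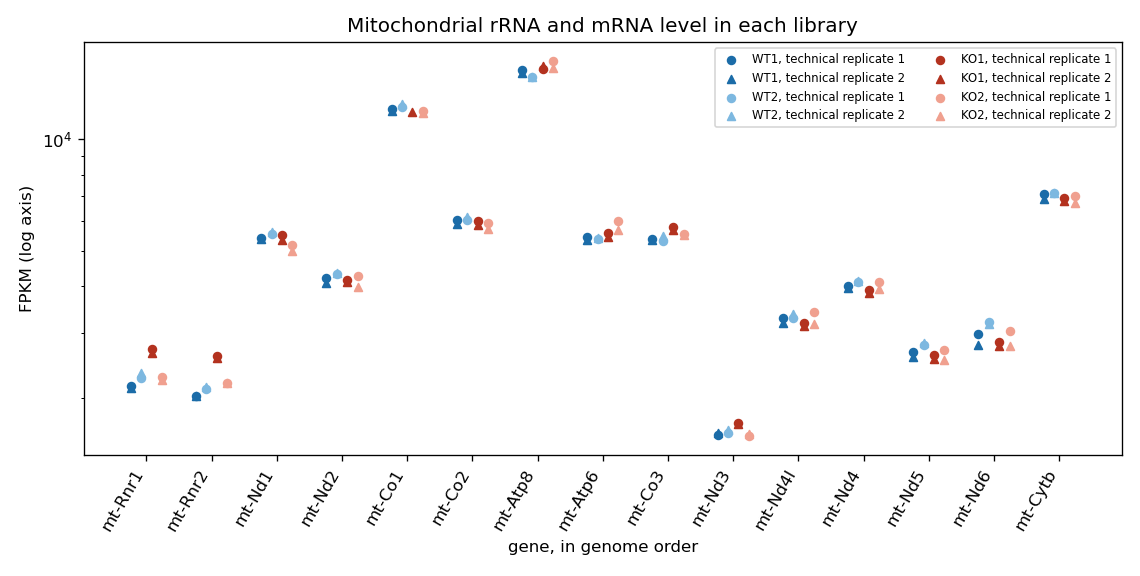
FPKM of the 2 rRNAs and 13 mRNAs in genome order (log axis), 1 point per library, with colours for animals and shapes for technical replicates. The libraries of most mRNAs lie on top of each other, mt-Atp8 and mt-Co1 stand highest, and both libraries of KO1 stand above the others for mt-Rnr1 and mt-Rnr2.

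The levels per length spanned from 15372 FPKM for mt-Atp8 to 1627 FPKM for mt-Nd3 as means of the 4 animals. mt-Co1 followed at 11987 FPKM and mt-Cytb at 6974, and these 3 genes were separated from their neighbours in the order in all animals. mt-Co2 (5953 FPKM), mt-Atp6 (5536), mt-Co3 (5497) and mt-Nd1 (5363) formed a run in which each overlapped the next over the animals. mt-Nd2 (4178) overlapped mt-Nd4 (3999.8), and mt-Nd4l (3252), mt-Nd6 (2937), mt-Nd5 (2650.2), mt-Rnr1 (2342) and mt-Rnr2 (2230.1) formed another overlapping run. mt-Atp8 and mt-Atp6 lie on 1 RNA, yet the FPKM of mt-Atp8 was 2.72 to 2.84 times that of mt-Atp6 in the animals. mt-Atp8 is 204 bases long and mt-Atp6 681, and the part of length in this ratio was not tested.

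Complex V and the neighbouring mt-Co3 held the mRNAs with the highest KO means relative to WT. mt-Atp8 (ENSMUSG00000064356, MT:7766-7969), a small membrane subunit of ATP synthase, was at 15401 and 15045 FPKM in WT1, 14740.3 and 14747 in WT2, 15455 and 15753 in KO1, and 16241 and 15598 in KO2. All 4 libraries labelled KO lay above all 4 WT libraries, by little. The means were 14983 ± 339 and 15762 ± 223 FPKM (SD over 2 animals), 5.19% higher in KO, with a log2 fold change of 0.07 (95% interval -0.10 to 0.25, limma adjusted p = 0.650). mt-Atp6 (ENSMUSG00000064357, MT:7927-8607), the subunit that forms the proton path, was at 5453 and 5337 FPKM in WT1, 5372 and 5414 in WT2, 5574 and 5435 in KO1, and 6009.7 and 5694 in KO2. Here 1 library of KO1 fell inside the WT range, and KO2 was the highest animal. Its difference was 5.27%, a log2 fold change of 0.07 (95% interval -0.08 to 0.23, limma adjusted p = 0.600). Neither gene passed.

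Complex IV, cytochrome c oxidase, reduces oxygen at the end of the chain, and its mitochondrial core is made of mt-Co1, mt-Co2 and mt-Co3. mt-Co3 (ENSMUSG00000064358, MT:8607-9390) was at 5364 and 5333 FPKM in WT1, 5309 and 5461 in WT2, 5774 and 5695 in KO1, and 5531 and 5507 in KO2. The libraries did not overlap, with KO above by 4.84% (log2 fold change 0.07, 95% interval -0.07 to 0.21, limma adjusted p = 0.601). mt-Co2 (ENSMUSG00000064354, MT:7013-7696), which receives electrons from cytochrome c, was at 6029 and 5912 FPKM in WT1, 6037 and 6141 in WT2, 6007 and 5869 in KO1, and 5931 and 5700.4 in KO2. Its libraries overlapped, and its mean was lower in KO, a change of -2.54%. mt-Co1 (ENSMUSG00000064351, MT:5328-6872), the catalytic subunit, was at 12028 and 11879 FPKM in WT1, 12228 and 12460.1 in WT2, 11812 in the second library of KO1, and 11947 and 11731 in KO2. These values overlapped as well, and the change was -2.66% with KO1 resting on 1 library. Its log2 fold change was -0.04 (limma adjusted p = 0.817), and under median-of-ratios scaling mt-Co1 and mt-Co2 turned to 0.0020 and 0.0031.

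mt-Atp8, mt-Atp6 and mt-Co3 lie next to each other and overlap, so they can share fragments and are not 3 independent observations. The log2 ratio of mt-Co3 to mt-Co2 within a library, which does not depend on the library total, was -0.17 and -0.15 in WT1, -0.19 and -0.17 in WT2, -0.06 and -0.04 in KO1, and -0.10 and -0.05 in KO2. This pair was chosen after the values were seen, so the gap between the groups is a description without a test. Non-overlap of all libraries, with KO on either side, was seen in 2 of the 13 mRNAs (mt-Atp8 and mt-Co3, KO above) and in 20.1% of all genes tested, with KO above in 7.11% and below in 13%. Non-overlap of the animals was seen in 8 of 13, 3 with KO above and 5 with KO below, and in 49.1% of all genes, 18.4% above and 30.7% below.

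**Figure D3:**
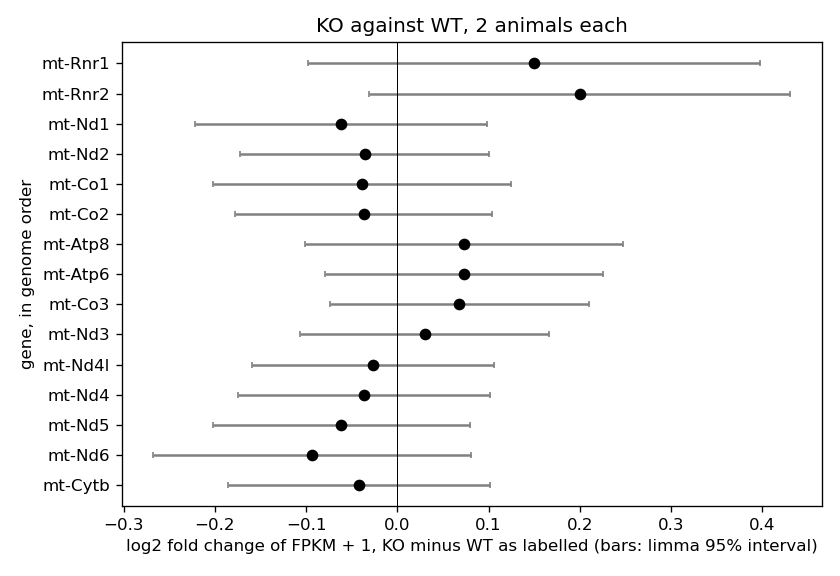
Log2 fold change of FPKM + 1, KO minus WT as labelled, for the 2 rRNAs and 13 mRNAs in genome order, with limma 95% intervals from 2 animals per group. Every interval includes 0; the rRNAs have the largest differences, 0.15 and 0.20, and the mRNAs lie between -0.09 and 0.07.

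Complex I, NADH dehydrogenase, takes 7 mitochondrial subunits, and 6 of the 7 (all but mt-Nd3) had a lower mean in KO. After quantile normalization, whose signs follow ranks, 5 of these 6 turned positive and mt-Nd1 did not. The 7 mRNAs of complex I together summed to 24126 and 23539 FPKM in WT1, 24827 and 25074 in WT2, 23899 and 23432 in KO1, and 24227 and 22943 in KO2. The libraries overlapped, WT2 was the highest animal, and the means were 24391 ± 791 and 23625 ± 57.1 FPKM (SD, n = 2 each). mt-Nd1 (ENSMUSG00000064341, MT:2751-3707) was at 5403 and 5356 FPKM in WT1, 5541 and 5609.7 in WT2, 5496 and 5349.7 in KO1, and 5164 and 4989 in KO2, so that KO2 was low and KO1 lay with the WT animals. mt-Nd2 (ENSMUSG00000064345, MT:3914-4951) was at 4208 and 4073 FPKM in WT1, 4308 and 4334 in WT2, 4158 and 4112 in KO1, and 4256 and 3978 in KO2. Both encode membrane subunits of the proton-pumping arm.

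mt-Nd3 was the complex I mRNA with a higher mean in KO. It (ENSMUSG00000064360, MT:9459-9806) was at 1583 and 1610.5 FPKM in WT1, 1607 and 1639 in WT2, 1708 and 1699.5 in KO1, and 1572 and 1599.6 in KO2. KO1 alone was high, and without KO1 the log2 fold change turned from 0.03 to -0.02. mt-Nd4l (ENSMUSG00000065947, MT:9877-10173) was at 3294 and 3182 FPKM in WT1, 3281 and 3368 in WT2, 3187 and 3132 in KO1, and 3409.9 and 3159 in KO2. mt-Nd4 (ENSMUSG00000064363, MT:10167-11544) was at 4000.3 and 3960.5 FPKM in WT1, 4102 and 4138 in WT2, 3922 and 3846 in KO1, and 4100.3 and 3929 in KO2. The 2 genes share an RNA and had log2 fold changes of -0.03 and -0.04, both with libraries that overlapped.

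mt-Nd5 and mt-Nd6 are read from opposite strands and overlap at their ends by 14 bases. mt-Nd5 (ENSMUSG00000064367, MT:11742-13565) was at 2658 and 2577 FPKM in WT1, 2783 and 2811 in WT2, 2605 and 2541 in KO1, and 2691 and 2534 in KO2. mt-Nd6 (ENSMUSG00000064368, MT:13552-14070), the light-strand mRNA, was at 2979 and 2781 FPKM in WT1, 3204 and 3173 in WT2, 2823 and 2752 in KO1, and 3034 and 2754 in KO2. WT2 was the highest animal for both genes, and the first library of KO2 exceeded both libraries of WT1. mt-Nd6 had the lowest log2 fold change of the 13 mRNAs, -0.09 (95% interval -0.27 to 0.08, limma adjusted p = 0.556). It stood at 0.09 after quantile normalization, whose signs follow ranks. The labels give no strand setting, so fragments of mt-Nd6 and of the opposite heavy-strand precursor cannot be told apart.

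Complex III receives 1 mitochondrial subunit, the cytochrome b of mt-Cytb (ENSMUSG00000064370, MT:14145-15288). It was at 7094 and 6903 FPKM in WT1, 7136 and 7166 in WT2, 6946 and 6785 in KO1, and 7031 and 6731 in KO2. The libraries of the groups overlapped, and the means were 7075 ± 108 and 6873 ± 11.3 FPKM (SD over 2 animals), with a log2 fold change of -0.04 (95% interval -0.19 to 0.10, limma adjusted p = 0.769). This gene overlaps no other and is outside the copied stretch of chromosome 1.

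On the log2 scale the rRNAs had the largest differences between the groups among the 15 longer transcripts, and both rested mainly on KO1. mt-Rnr1, the 12S rRNA of the small mitochondrial subunit (ENSMUSG00000064337, MT:70-1024), was at 2146 and 2123 FPKM in WT1, 2269 and 2332 in WT2, 2712 and 2645 in KO1, and 2275 and 2236 in KO2. mt-Rnr2, the 16S rRNA of the large subunit (ENSMUSG00000064339, MT:1094-2675), was at 2017 and 2018 FPKM in WT1, 2111 and 2144 in WT2, 2599.0 and 2565 in KO1, and 2199 and 2188 in KO2. KO1 stood above every other animal for both, while KO2 lay within the WT range for mt-Rnr1 and just above it for mt-Rnr2. The libraries of mt-Rnr2 thus did not overlap, with KO above, and those of mt-Rnr1 did. Such non-overlap with KO above was seen in 7.11% of all genes tested, and on either side in 20.1%. The group means were 2217 ± 117 and 2467 ± 299 FPKM for mt-Rnr1 and 2072 ± 78.0 and 2388 ± 274 FPKM for mt-Rnr2 (SD, n = 2 each).

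Neither rRNA passed. The log2 fold change was 0.15 for mt-Rnr1 (95% interval -0.10 to 0.40, limma adjusted p = 0.508) and 0.20 for mt-Rnr2 (95% interval -0.03 to 0.43, limma adjusted p = 0.370). Without KO1 they were 0.03 and 0.08, and without KO2 they were 0.27 and 0.32. KO1 and KO2 differed by up to 0.25 on the log2 scale, more than the groups did. In log2 units the ratio of the 2 rRNAs to the 12 mRNAs was -1.12 and -1.09 in the libraries of WT1, -1.06 and -1.05 in WT2, -0.77 and -0.77 in KO1, and -1.04 and -0.99 in KO2. As a fold the rRNA level per length was therefore 0.464 and 0.481 times that of the mRNAs in the WT animals, 0.585 times in KO1 and 0.495 times in KO2. The labels say that libraries came from total RNA and do not say how rRNA was removed or mRNA selected.

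KO1 was also at the end of the range in sums of cell type markers. The choroid plexus markers summed to 4269.7 and 7535 FPKM in WT1 and WT2, 292 FPKM in KO1 and 1248 FPKM in KO2. The 6 oligodendrocyte markers summed to 2889 and 2702 FPKM in the WT animals, 3197 in KO1 and 2799 in KO2, the 6 astrocyte markers to 789 and 748, 839 and 782 FPKM, and the 6 microglia markers to 137 and 127, 151 and 135 FPKM. Ependymal markers summed to 64.2 and 54.1 FPKM in WT, 26.5 in KO1 and 44.5 in KO2, red blood cell markers to 287 and 317, 149 and 158 FPKM, and meningeal markers to 40.1 and 60.4, 19.7 and 40.2 FPKM. Endothelial and pericyte markers (6 genes) were at 35.004 and 38.1, 34.3 and 38.4 FPKM. Single markers did not all follow the sums. The KO group mean was higher for 6 of 6 oligodendrocyte, 3 of 6 astrocyte, 5 of 6 microglia and 2 of 6 endothelial and pericyte markers. The 5 RNAs retained in the nucleus summed to 610.1 and 638 FPKM in WT, 453 in KO1 and 510.2 in KO2. No marker was at 0 in every library, and the part of these differences in the rRNA levels was not tested.

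**Figure D4:**
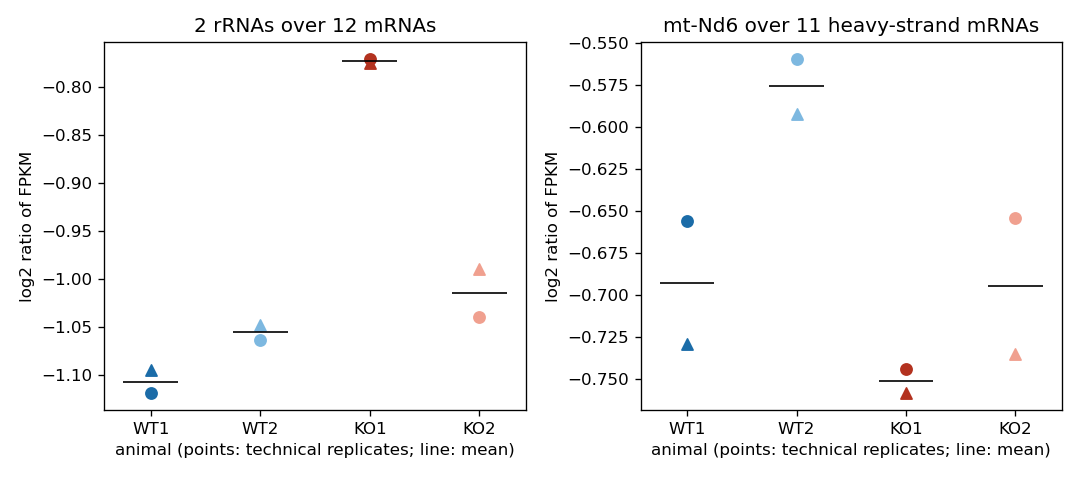
Log2 ratios of FPKM per library for the 2 rRNAs over 12 mRNAs (left) and for mt-Nd6 over 11 heavy-strand mRNAs (right), by animal, with lines at the animal means. KO1 stands apart on the left at -0.77, and on the right the animal means run from -0.75 in KO1 to -0.58 in WT2, with libraries of WT1 and KO2 between them.

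The level of the light-strand mRNA relative to the heavy-strand mRNAs overlapped between the libraries of the groups. In log2 units the ratio of mt-Nd6 to the mean of 11 heavy-strand mRNAs was -0.692 in WT1, -0.576 in WT2, -0.751 in KO1 and -0.694 in KO2. The KO animals thus lay below the WT animals, but WT1 and KO2 were nearly equal. The technical replicates of KO2 alone ranged from -0.73 to -0.65. The ratio of mt-Rnr1 to mt-Rnr2, neighbours in the same precursor, was 0.08 and 0.11 in the WT animals and 0.05 and 0.04 in the KO animals.

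Light-strand tRNAs were detected in more libraries than heavy-strand tRNAs, with overlap between the strands. Of the 8 light-strand tRNAs, 7 were above 0 in every library with a value (mt-Tq, mt-Tn, mt-Tc, mt-Ty, mt-Ts1, mt-Te and mt-Tp), and the last, mt-Ta, in 7 of 8. Of the 14 heavy-strand tRNAs 1, mt-Tm, was above 0 in every library, mt-Th was above 0 in 7 of 8, mt-Tl1 and mt-Tt in 6, and 5 (mt-Td, mt-Tk, mt-Tr, mt-Ts2 and mt-Tl2) were listed at 0 in every library. The median level was 721 FPKM for the light-strand tRNAs and 18.7 FPKM for the heavy-strand ones, as means of the 4 animals. The strands overlapped in level, since mt-Tm (684 FPKM) stood above the light-strand mt-Tn (662), mt-Tq (530.2), mt-Ty (234) and mt-Ta (128), and mt-Th (123) stood close to mt-Ta. This grouping was made after the values were seen and carries no test. Without a strand setting, a fragment that crosses a light-strand tRNA gene can come from the opposite precursor, and a value of 0 in genes this short does not show that the tRNA was absent.

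**Figure D5:**
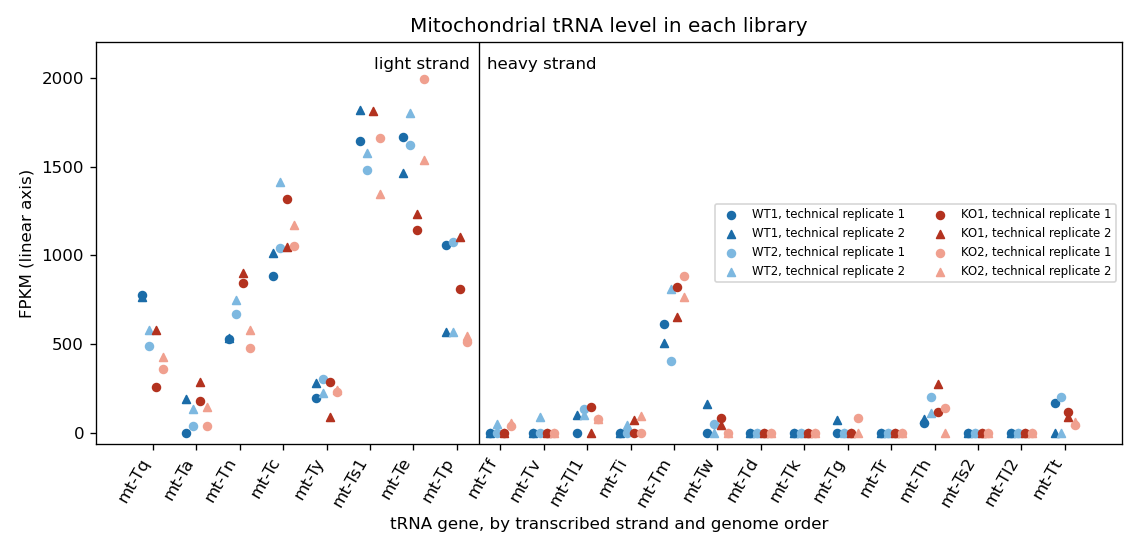
FPKM of the 22 tRNAs in each library (linear axis), light-strand genes left of the line and heavy-strand genes right of it, with colours for animals and shapes for technical replicates. The light-strand genes stand up to 1994 FPKM, and mt-Tm is the heavy-strand gene above 0 in all libraries; technical replicates of 1 animal differ widely.

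In listed FPKM, whose order need not be that of fragment numbers, the highest tRNAs were those for serine and glutamate. mt-Te, the glutamate tRNA between mt-Nd6 and mt-Cytb, was at 1668 and 1466 FPKM in WT1, 1622 and 1801 in WT2, 1144 and 1234 in KO1, and 1994 and 1538 in KO2. The animals labelled KO lay on both sides of the WT animals. mt-Ts1, a serine tRNA that overlaps the end of mt-Co1 by 3 bases on the other strand, was at 1646 and 1817 FPKM in WT1, 1479.8 and 1576 in WT2, 1814 in the second library of KO1, and 1662 and 1345 in KO2. mt-Tc, for cysteine, was at 885 and 1013 FPKM in WT1, 1044 and 1412 in WT2, 1318 and 1046 in KO1, and 1056 and 1171 in KO2. mt-Tp, for proline, ranged from 567 to 1074 FPKM in WT and from 512 to 1105 FPKM in KO, and mt-Tn, for asparagine, from 529 to 747 and from 477 to 903 FPKM. The groups overlapped for all 5.

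mt-Tm and mt-Tq had the smallest p-values of the members. mt-Tm, the methionine tRNA, was at 615 and 509.9 FPKM in WT1, 405 and 811 in WT2, 824 and 653 in KO1, and 886 and 769 in KO2. Both KO animals had a higher mean, but the second library of WT2 lay within the KO range. The log2 fold change was 0.42 (95% interval 0.23 to 0.61, limma adjusted p = 0.117), which did not pass. The technical replicates of WT2, 405 and 811 FPKM, averaged to 608 FPKM, close to WT1 at 562 FPKM. mt-Tq, the glutamine tRNA, was at 776 and 767 FPKM in WT1, 491 and 583 in WT2, 258 and 583 in KO1, and 358 and 426 in KO2. The log2 fold change was -0.66 (95% interval -1.11 to -0.22, limma adjusted p = 0.204), and the second library of KO1 reached the level of WT2.

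The remaining tRNAs rested on still fewer fragments. mt-Ty, for tyrosine, was at 195 and 283 FPKM in WT1, 307 and 227 in WT2, 290.1 and 92.1 in KO1, and 233 and 243 in KO2. mt-Ta, for alanine, was at 0 and 191 FPKM in WT1, 40.5 and 135 in WT2, 183 and 290.3 in KO1, and 36.9 and 144 in KO2. mt-Th, for histidine, was at 55.7 and 81.0 FPKM in WT1, 205 and 113 in WT2, 116 and 276 in KO1, and 139.8 and 0 in KO2. For these 3 genes the repeats of 1 animal differed as much as the groups. mt-Tl1, 1 of the leucine tRNAs, was at 0 and 103 FPKM in WT1, 133 and 99.3 in WT2, 149 and 0 in KO1, and 81.2 and 78.7 in KO2. mt-Tt, for threonine, was at 167 and 0 FPKM in WT1, 205 and 0 in WT2, 116 and 92.1 in KO1, and 46.6 and 60.7 in KO2. Its zeros fell in the second libraries of both WT animals. mt-Tw, for tryptophan, was above 0 in 4 libraries, at 162 FPKM in WT1, 51.2 in WT2, and 87.0 and 46.0 in KO1. mt-Tf and mt-Ti, for phenylalanine and isoleucine, were above 0 in 3 of 8 libraries each, mt-Tg, for glycine, in 2 and mt-Tv, for valine, in 1.

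Of the 22 tRNAs, 16 passed the minimum level and none of these passed the test (limma adjusted p of 0.117 to 0.996). For tRNAs listed at 0 in some libraries the fold depends on the added 1 and is not printed. Technical replicates of 1 animal differed by a median of 0.58 on the log2 scale over the 16, against 0.03 for the 13 mRNAs. The 21 tRNAs with a value in every library summed to 6157 ± 434 FPKM in WT and 6048 ± 312 FPKM in KO (SD over 2 animals), a difference of -1.78% that lay within the spread. The sums by strand differed in sign, but single genes weighed heavily in both. The 14 heavy-strand tRNAs summed to 837 and 927 FPKM in WT1, 999 and 1209 in WT2, 1292 and 1139.9 in KO1, and 1278 and 1058 in KO2. The animals did not overlap, with KO 20.02% higher, while the libraries did, and mt-Tm held most of this sum. The means of the sum were 993 FPKM in WT and 1192 FPKM in KO, and those of mt-Tm 585 and 783 FPKM. The difference therefore rested on mt-Tm and was not shared by the heavy-strand tRNAs as a set. The 7 light-strand tRNAs with a value in every library summed to 5164 ± 278 FPKM in WT and 4856 ± 279 FPKM in KO, a difference of -5.97%, and the animals overlapped. Among these light-strand tRNAs mt-Tq had means of 654 FPKM in WT and 406 FPKM in KO, while mt-Ta, mt-Tn and mt-Tc had higher means in KO. Neither strand sum was tested.

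Nuclear genes that act on mitochondrial DNA and RNA were read from lists written with earlier results of these data known. Of 18 genes for transcription and replication of mitochondrial DNA, all measured, 0 passed (median log2 fold change -0.07, 5 with a higher mean in KO, 13 with a lower one). The smallest p belonged to Tfb2m, the factor that opens the promoter for the mitochondrial RNA polymerase, at 8.87 ± 0.0348 FPKM in WT and 10.1 ± 0.0306 FPKM in KO (SD, n = 2 each). Its log2 fold change was 0.17 (SE 0.05, limma adjusted p = 0.235). Mrpl12, a ribosomal protein that also binds that polymerase, was at 32.7 ± 0.786 and 35.6 ± 1.44 FPKM, and Primpol, a primase-polymerase, at 1.20 ± 0.0859 and 0.894 ± 0.0979 FPKM. Neither passed.

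Genes that process and stabilise mitochondrial RNA gave no call either. Of 23 such genes 0 passed (median -0.02, 7 higher and 16 lower means); Pnpt1, which degrades and imports RNA, was at 6.63 ± 0.0834 FPKM in WT and 5.66 ± 0.619 FPKM in KO, Fastkd2, which binds the 16S rRNA, at 5.99 ± 0.331 and 5.28 ± 0.175 FPKM, and Fastk, the founding member of that family, at 35.02 ± 0.0586 and 32.9 ± 1.19 FPKM. Of 16 genes for tRNA maturation 0 passed (median -0.02, 6 higher and 10 lower); Trnt1, which adds the CCA end, was at 15.4 ± 0.152 and 16.6 ± 0.666 FPKM, Alkbh1 at 4.82 ± 0.0786 and 4.35 ± 0.295 FPKM, and Nsun3, which modifies the methionine tRNA, at 2.48 ± 0.288 and 2.79 ± 0.192 FPKM. Of 78 mitochondrial ribosomal proteins 0 passed (median -0.01, 32 higher and 46 lower). Mrpl24 was at 24.7 ± 0.0772 and 22.3 ± 0.00407 FPKM, Mrps6 at 26.4 ± 4.03 and 20.1 ± 0.719 FPKM, and Mrpl19 at 8.27 ± 0.502 and 9.96 ± 0.881 FPKM. At an unadjusted p under 0.05 there were 1, 0, 0 and 4 genes in these lists, against 15.5% of all genes tested. The share with a higher mean in KO was 27.8%, 30.4%, 37.5% and 41.0% in the 4 lists in the order given, beside 42.0% of all genes tested, whose median was -0.02.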

How the data were processed

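The authors deposited 1 gene table per library with FPKM, confidence limits and a status, per the file headers. Builds and tools in the submitters' processing notes are mm10, Bowtie (version 1) and HISAT, without their roles, and neither the program behind the FPKM nor its scaling is stated in the sources used here. Rows that repeat a gene (53) were summed, and 12 values whose status was not OK were set to missing. Technical replicates were averaged per animal, and log2(FPKM + 1) was tested with limma 3.58.1 in R 4.3.3 (trended variance, 16667 genes with at least 0.5 FPKM in 2 animals), with Benjamini-Hochberg adjustment over all of them; adjusted p-values in the text are from this fit. The procedure was tested on simulated data. The minimum of 0.5 FPKM, the members, lists and tests were chosen with earlier results of these data known. The naming rule took every mRNA and rRNA, the tRNAs above the minimum, and the 3 smallest p-values of each nuclear list. 1 nuclear copy, Gm10222, was added after the values were seen, and Gm10924, on the first list of copies, was not matched and was left out. Alternatives (17) were other scalings, filters and pseudocount, single technical replicates, libraries as units, each animal or the first library of KO1 left out, a block by animal number, no trend, and copies summed. Sequences are from GENCODE M21. How the deposited intervals were computed is not stated; fragment numbers read from them assume counting error alone.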

Additional observations from a re-analysis of the deposited data

Results flagged for a closer look

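In groups of 4 libraries, 1 library stood far from the other 3 in 4 of 60 groups of tRNA, rRNA and mRNA values tested. The rule is set to flag about 5% of groups of independent values. Technical replicates are not independent, so that rate is no measure of chance here. All 4 were tRNAs listed at 0 in the other 3 libraries of the group: mt-Tf at 50.4 FPKM and mt-Ti at 45.03 FPKM in the second library of WT2, and mt-Tg at 71.6 FPKM in the second library of WT1 and at 82.7 FPKM in the first library of KO2. Beside 3 zeros the rule flags any value above 0. Read as counting error alone, the interval of each flagged value stands for 1.99 fragments or fewer.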

How the results depend on the processing

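With 2 animals per group, 0 of the 31 members passed in the reported fit, and over 17 alternatives, 1 of them added after seeing the data (nuclear copies summed), 0 passed in 14. The count was 1 with the second technical replicates alone (mt-Tt, listed at 0 in both WT libraries used), 0 to 1 with 1 animal left out (mt-Ta without KO2, listed at 0 in 1 WT library), and 1 with the animal number as a replicate block (mt-Tm, 0.42, adjusted p = 0.0305); the labels do not pair the animals, and deviations of same-numbered animals correlated at 0.11 over genes. Over all genes the count of 9 became 18 after quantile normalization, 14 with a pseudocount of 0.1, 0 without a filter (3741 unadjusted), 2045 with libraries as units, 0 to 128 with 1 animal left out, 20 without the first library of KO1, 184 with the replicate block and 1 without the trend. The summed 12 mRNAs differed by 0.319%, and by 3.16% after median-of-ratios scaling, 3.22% after quantile normalization, 1.48% scaled without mitochondrial genes, and 1.37% and -0.738% with the first or second technical replicates; it was -0.424% to 1.07% with 1 animal left out and 0.0480% without the first library of KO1. Log2 fold changes near 0 turned sign: after median-of-ratios scaling mt-Nd2 (0.0043), mt-Co1 (0.0020), mt-Co2 (0.0031), mt-Nd4l (0.014) and mt-Nd4 (0.0037); after quantile normalization mt-Nd2 (0.13), mt-Co2 (0.0067), mt-Nd4l (0.17), mt-Nd4 (0.13), mt-Nd5 (0.017), mt-Nd6 (0.091) and mt-Cytb (0.098); mt-Nd4l with first technical replicates (0.0040). With 1 animal left out mt-Nd3 ran from -0.022 to 0.081 and mt-Nd4l from -0.054 to 0.0016. Quantile normalization sets each value by its rank, so its signs for these high genes cannot decide a direction. The causes of the turns were not tested. Among the mRNAs and rRNAs, mt-Atp8, mt-Atp6, mt-Co3, mt-Rnr1 and mt-Rnr2 stayed positive in every alternative run, and mt-Nd1 stayed negative (-0.109 to -0.014).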
